A study of Mus musculus with 5 samples.

Results

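Mammalian mitochondria keep ribosomes of their own, built from ribosomal RNA of the mitochondrial genome and from proteins whose genes lie in the nucleus. The genes examined are those of these mitochondrial ribosomal proteins, taken as every table row whose symbol begins with Mrpl or Mrps and a digit, without symbols marked as pseudogenes. This gave 77 of 13966 genes, of which 48 are named for the large subunit (Mrpl) and 29 for the small subunit (Mrps). The rule used the symbols and no measured value.

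The study sorted mouse hepatocytes by a fluorescent probe that reports fatty acid oxidation and measured their RNA by sequencing. All 5 libraries came from ICR mice, an outbred stock, that had received the probe. Control negative and control positive are the gates of low and high fatty acid oxidation activity of hepatocytes without drug. Bezafibrate negative, bezafibrate positive and bezafibrate high are gates of hepatocytes with bezafibrate, a lipid-lowering drug that activates peroxisome proliferator-activated receptors, and the last is the uppermost gate. The sources used here do not say whether the animals or the cells received the drug, nor its dose and duration, nor the sex, age and number of mice, nor whether gates shared a liver, so treatment and mouse cannot be told apart. With 1 library in each group, differences come without a check against replicates, and intervals cover counting error only. In such bulk RNA, fewer cells of a type and less RNA per cell cannot be told apart.

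The mitochondrial ribosome makes the membrane-embedded proteins of the respiratory chain and ATP synthase that mitochondrial DNA encodes. Its small subunit holds the messenger RNA and the decoding centre, and its large subunit joins the amino acids and threads the new chain into the inner membrane. It is richer in protein than a bacterial ribosome, with many subunits that have no bacterial counterpart. In hepatocytes its products carry the electrons that fatty acid oxidation releases.

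Sequence around the starts of some members is shown first, because the nuclear factors NRF1 and GABP, the latter of the ETS family, are known regulators of genes for mitochondrial proteins. Promoters of 68 of the 77 members were found in RefSeq for GRCm38.p6, and the 250 bases before each start were searched on both strands. The first shown is a stretch of 30 bases of Mrpl18, the member that goes against the others in the results, at chr17:12916312-12916341 on the minus strand. It lies upstream of the start that RefSeq's table gives, but inside the gene as GENCODE annotates it, close to the gene's outer end. Mrpl22 at chr11:58171414-58171660 on the plus strand is 1 of 2 members with a match of both factors. Mrpl34 at chr8:71464676-71464925 on the plus strand and Mrps22 at chr9:98601680-98601929 on the minus strand carry an ETS match beside another repeated element. Mrpl42 at chr10:95501950-95502199 on the minus strand, the member with the steepest fall between bezafibrate gates, has that element and neither NRF1 nor ETS. Capitals mark the matches.
Mrpl18: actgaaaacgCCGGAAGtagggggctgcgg
Mrpl22: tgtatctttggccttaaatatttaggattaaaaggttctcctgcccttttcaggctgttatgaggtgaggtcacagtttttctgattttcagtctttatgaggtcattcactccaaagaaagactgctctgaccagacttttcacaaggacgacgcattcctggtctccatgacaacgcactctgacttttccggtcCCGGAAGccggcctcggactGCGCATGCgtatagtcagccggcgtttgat
Mrpl34: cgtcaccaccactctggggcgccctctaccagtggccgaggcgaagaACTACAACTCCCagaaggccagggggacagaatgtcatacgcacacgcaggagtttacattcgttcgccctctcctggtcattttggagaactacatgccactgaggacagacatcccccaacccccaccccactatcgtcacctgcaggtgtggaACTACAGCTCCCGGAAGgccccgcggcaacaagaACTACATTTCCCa
Mrps22: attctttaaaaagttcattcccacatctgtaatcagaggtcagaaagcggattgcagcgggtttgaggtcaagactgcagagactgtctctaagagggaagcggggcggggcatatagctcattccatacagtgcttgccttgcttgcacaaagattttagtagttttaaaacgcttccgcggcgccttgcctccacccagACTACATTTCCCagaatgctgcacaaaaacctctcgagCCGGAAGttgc
Mrpl42: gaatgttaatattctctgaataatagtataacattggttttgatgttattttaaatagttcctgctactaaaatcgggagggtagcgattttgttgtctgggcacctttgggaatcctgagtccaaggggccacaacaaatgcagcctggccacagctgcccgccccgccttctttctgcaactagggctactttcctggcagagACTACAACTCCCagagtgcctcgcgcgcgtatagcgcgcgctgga

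The NRF1 core GCATGCGC was present in 8 of the 68 promoters (11.8%), against 4.39% of 9983 promoters of protein-coding genes in the table and 2.99% of all 17492 such promoters of that length. The ETS core CCGGAAG was present in 16 (23.5%), against 13.4% and 9.13%. Mrpl17 and Mrpl22 held both. Of the 8 members with the NRF1 core, 7 are among the 42 large subunit promoters searched (Mrpl10, Mrpl17, Mrpl22, Mrpl32, Mrpl33, Mrpl39 and Mrpl9). The other is Mrps18b, among 26 small subunit promoters. With so few matches no difference between the subunits can be read, and none was tested. The element known for the factor ZNF143, read as ACTACA, 2 bases of any kind and TCCC, was searched after the sequences above had been read. It was present in 5 promoters (7.35%), those of Mrpl24, Mrpl34, Mrpl42, Mrpl50 and Mrps22, against 4.17% and 2.60%, and 3 times in the Mrpl34 window, where it overlaps the ETS match. The E-box CACGTG, the core bound by MYC, was in 5 promoters (7.35%), against 8.08%. The element of PPAR receptors (AGGTCA, any base, AGGTCA) and the heat shock element (GAA, TTC and GAA with 2 bases between each) were in 0, against 0.0401% and 0.290% of promoters of genes in the table. A match is a string of letters and not a shown binding site.

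The 77 genes lie on 17 chromosomes. Another annotated gene overlaps 41 of them, 13 on the same strand, and whether the deposited counts used strand is not stated. None of the 5 annotated pseudogenes named for this family is in the table. Libraries held 5056884 to 7146578 reads, and a member had between 5 and 553 reads in a library. A mean of at least 5.02, used below as the level filter, was reached by 63 members (41 large, 22 small) and 8973 genes in all.

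Hepatocyte identity was checked with 7 markers, all present, whose summed normalised read count (the deposited unit, a read count scaled to library size) was 39161 to 90320. Summed levels of other cell types were far lower, at 2.67 to 6.90 for Kupffer cells (3 of 6 markers in the table), 14.1 to 24.6 for sinusoidal endothelium (4 of 5), 1.42 to 5.60 for stellate cells (4 of 5), 2.80 to 13.1 for cholangiocytes (4 of 5) and 24.1 to 45.5 for erythroid cells (2 of 3). The erythroid sum was nearly all Alas2, at 24.1 to 45.1, while the haemoglobin gene Hba-a1 was at most 0.411 in any library. Markers of T, NK and B cells were not in the table. The precursor ribosomal RNA Rn45s took 36.3% of control negative reads, 34.8% of control positive, 10.5% of bezafibrate negative, 18.5% of bezafibrate positive and 13.5% of bezafibrate high. The sum of hepatocyte markers was mostly Alb, which was 2.97 times as high under bezafibrate in the negative gates and 2.09 times in the positive gates. The other markers went both ways, with ratios of 1.996 and 1.28 for Cyp2e1, 1.57 and 1.24 for Ttr, 1.1 and 1.003 for Cps1, 1.09 and 0.992 for Apoa1, 0.846 and 0.863 for Tat and 0.618 and 0.68 for Hnf4a. The part of Rn45s and of these markers in the results below was not tested.

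Messages for both subunits were low and similar within a library. Where 5 normalised read counts are listed, the control gates come first (negative, then positive) and the bezafibrate gates after them (negative, positive, then high). The median large subunit gene stood at 7.39, 7.01, 11.5, 9.77 and 9.93, and the median small subunit gene at 6.78, 7.11, 9.46, 8.83 and 8.66. Both medians were higher in every bezafibrate library than in either control library. Summed over all 77, the normalised read count was 694 and 703 in the controls and 1034, 933 and 921 under bezafibrate.

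**Figure D1:**
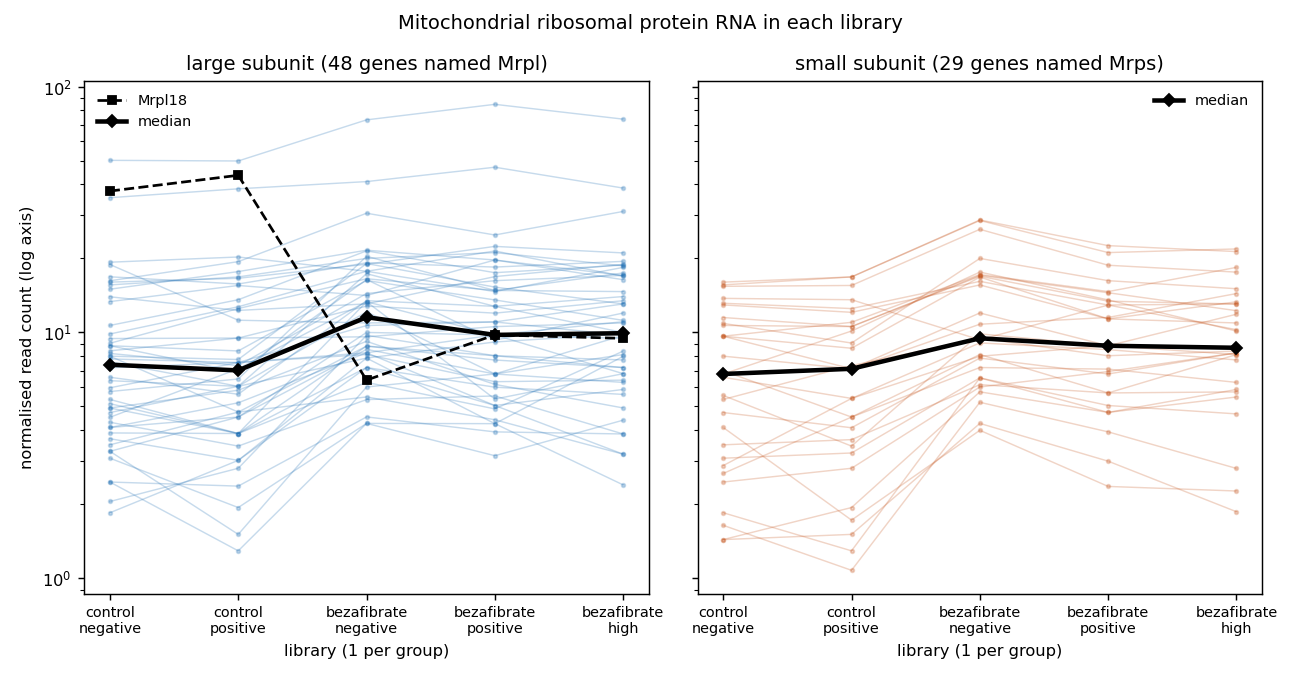
Normalised read count (log axis) of each large subunit gene (left, 48 genes) and small subunit gene (right, 29 genes) in the 5 libraries, 1 library per group, with the median in black. Most lines lie higher in bezafibrate than in control libraries, while Mrpl18 (dashed) is at 43.5 in control positive and at 6.4 in bezafibrate negative.

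Levels of different genes were compared per kilobase of transcript. The highest mean belonged to Mrpl38, a mitochondria-specific large subunit protein related to phosphatidylethanolamine-binding proteins, with a normalised read count per kilobase of 35.5, 35.3, 51.9, 59.98 and 52.2. Mrpl12, a stalk protein that helps recruit translation factors, came next with 26.8, 29.2, 31.2, 35.7 and 29.4 per kilobase. Mrpl52, Mrpl14, Mrpl10 and Mrpl2 followed among large subunit genes. Among small subunit genes the leaders were Mrps12, Mrps21, Mrps18a, Mrps34, Mrps18b and Mrps24. Mrps12, part of the decoding centre, had 14.3, 13.2, 21.1, 16.7 and 16.3 per kilobase. The lowest members that passed the level filter were Mrps35, Mrps25 and Mrpl19, and Mrps35 had 0.691, 1.29, 2.18, 2.04 and 1.86 per kilobase. In control positive, Mrpl18 was higher still, at 35.7 per kilobase. Messages of proteins that are assembled into 1 particle thus differed widely in level.

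Bezafibrate against control was the comparison in which the members stood apart most. In the negative gates, the ratio of bezafibrate to control exceeded 1 in 71 of 77 members (92.2%), against 47.0% of all genes in the table. At least a 1.5-fold higher level, on the scale of log2(value + 1.004), was reached by 45 of 77, against 20.2% of all genes in the table and 21.6% of 2774 protein-coding genes of like level and length. Lower by that much were Mrpl18 and Mrpl35, against 16.7% of genes. The median log2 difference of the 77 was 0.72, beside 0.00 for all genes and 0.07 for genes of like level and length. The latter lie between 642 and 3429 bases but were not matched to the members' distribution of lengths. They allow for length only in part, and members are set beside other genes by length further below. The counting interval lay above 1 for 47 members and below 1 for Mrpl18, Mrpl35 and Mrps26, against 23.5% and 21.6% of genes.

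The positive gates gave the same direction with a smaller size. The ratio exceeded 1 in 70 of 77 members (90.9%), against 47.2% of all genes, and 25 members were at least 1.5-fold higher, against 15.3%, and Mrpl18 alone lower by that much, against 11.7%. The median log2 difference was 0.41, beside 0.01 for all genes and 0.02 for genes of like level and length. The counting interval lay above 1 for 24 members and below 1 for Mrpl18 alone, against 18.7% and 17.4% of genes. The ratio was above 1 in both gates for 67 of 77 members (87.0%), against 35.1% of all genes and 40.4% of genes of like level and length. It was below 1 in both for Mrpl18, Mrpl35 and Mrps26, against 36.4% of all genes. In 57 members (74.0%) the lowest bezafibrate library exceeded the higher control library, against 30.3% of all genes and 30.7% of genes of like level and length, and in Mrpl18 and Mrps26 the order was the opposite, against 27.8%. With intervals, 18 members (23.4%) were above 1 in both gates, against 14.6% of all genes and 11.6% of genes of like level and length. Among genes that passed the level filter, which part of the 77 did not, the share was a similar 21.6%. Most single members could not be told from no difference in both gates at this depth.

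The difference had about the same size in both subunits. In the negative gates the median log2 difference was 0.64 for the 48 large and 0.73 for the 29 small subunit genes, and in the positive gates 0.40 and 0.42. Summed small subunit reads, scaled for library size, were 1.64-fold higher in the negative gates (counting interval 1.53 to 1.76) and large subunit reads 1.42-fold (1.35 to 1.49). Without Mrpl18 the large subunit sum was 1.53-fold higher (1.45 to 1.61), an interval that overlaps that of the small subunit. In the positive gates the sums were 1.38-fold higher for the small subunit (1.27 to 1.49) and, without Mrpl18, 1.41-fold for the large (1.34 to 1.49). Members with a bacterial counterpart (46 genes) and members found in mitochondrial ribosomes alone (30 genes) had medians of 0.72 and 0.72 in the negative gates and of 0.42 and 0.38 in the positive gates.

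**Figure D2:**
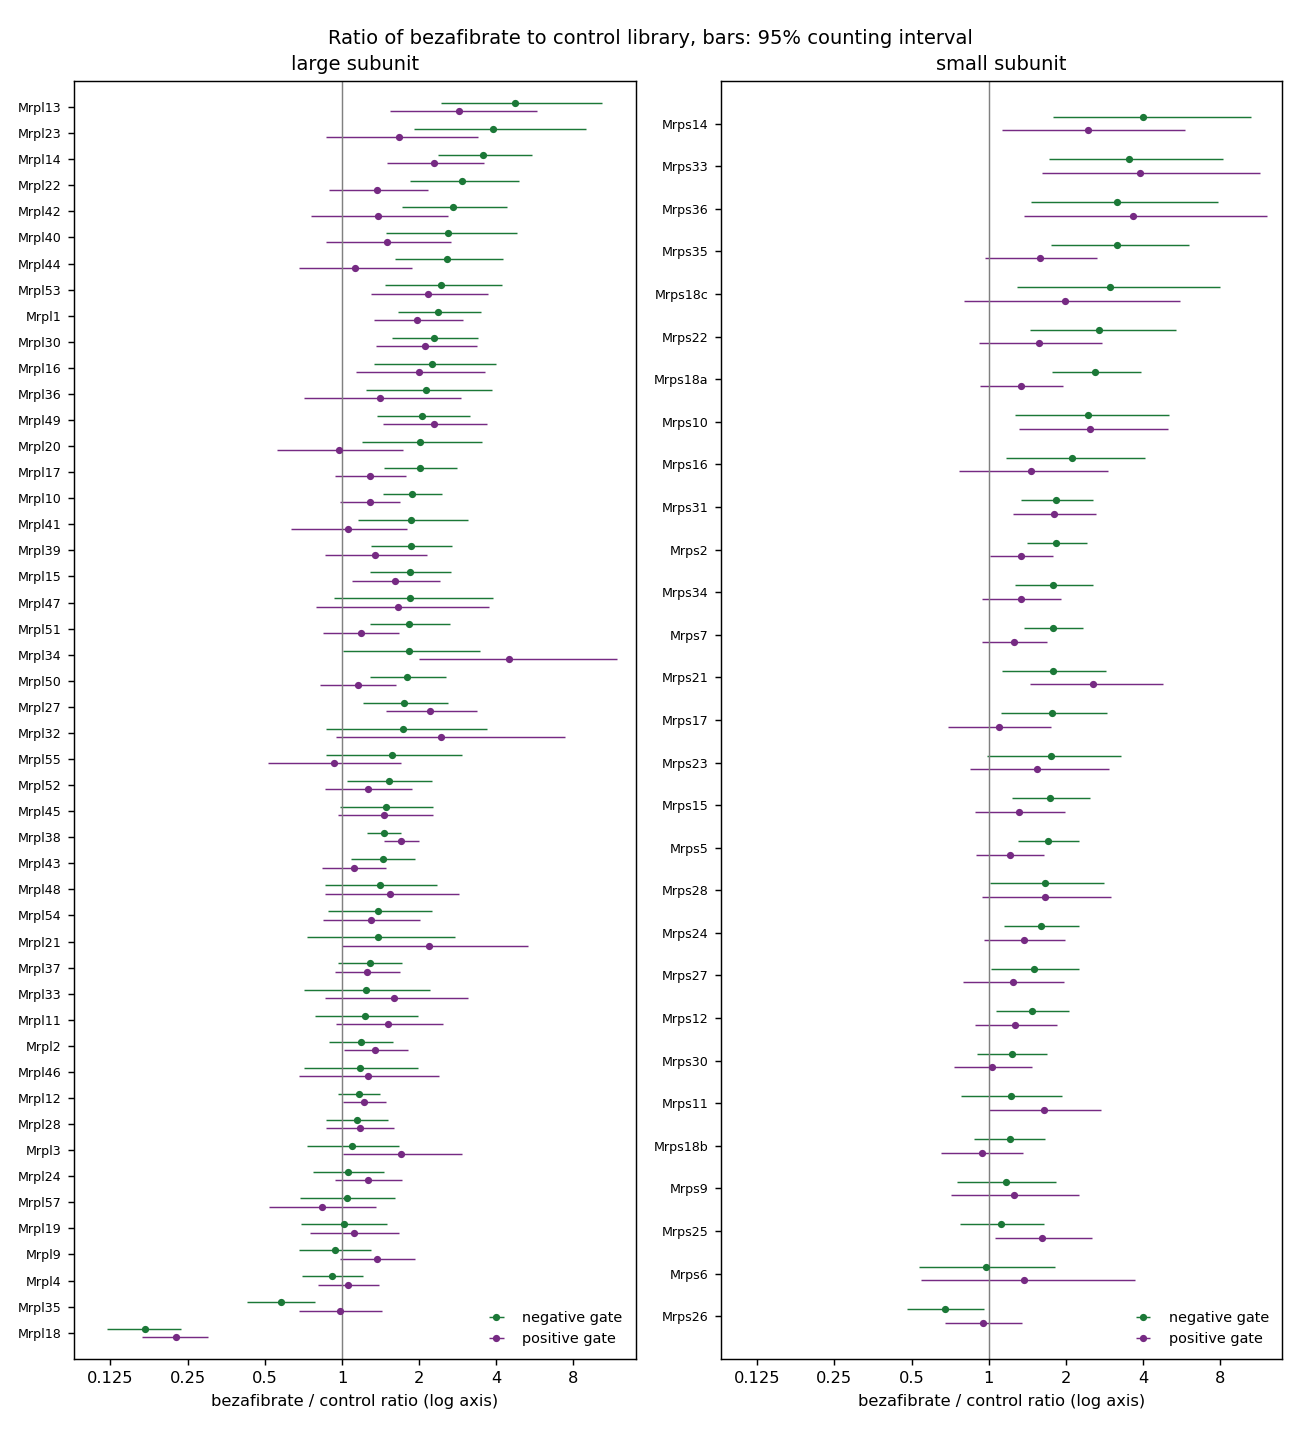
Ratio of the bezafibrate to the control library for each member (log axis), in the negative gates (green) and the positive gates (purple), with 95% counting intervals as bars, large subunit on the left and small on the right. Nearly all points lie right of 1 in both gates, 71 of 77 and 70 of 77, and Mrpl18 lies far to the left in both.

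Transcript length went along with this difference. The other genes set beside the members here all passed the level filter, while the members include those that did not. The shortest 26 members (up to 937 bases) had a median log2 difference of 0.78 in the negative gates, and 454 other genes of that length had 0.64. The middle 26 members (from 941 bases) had 0.43 beside 0.29 for 1186 other genes. The longest 25 (from 1849 bases) had 0.67 beside -0.03 for 5592 other genes. The gap between members and other genes was thus widest for long transcripts. In the positive gates the members' medians were 0.40, 0.42 and 0.40, beside 0.41, 0.17 and -0.03. Short members were therefore no higher than other short transcripts there.

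Among large subunit genes, Mrpl13 had the largest difference in the negative gates of the members that passed the level filter. It encodes the counterpart of bacterial L13 and its normalised read counts were 2.05, 2.8, 9.73, 8.04 and 7.73. Both control libraries were below every bezafibrate library, and the ratio was 4.74 (counting interval 2.44 to 10.3) in the negative gates and 2.87 (1.54 to 5.75) in the positive gates. Mrpl14, the counterpart of bacterial L14 that binds the assembly factor Malsu1, had normalised read counts of 5.75, 6.47, 20.4, 14.8 and 17.5. Its ratios were 3.55 (2.36 to 5.52) and 2.29 (1.5 to 3.58), and the control and bezafibrate libraries did not overlap. Mrpl22, whose bacterial counterpart lines the exit tunnel, had 4.52, 7.11, 13.3, 9.77 and 11.1, with ratios of 2.95 (1.85 to 4.92) and 1.37 (0.886 to 2.16). The second interval includes 1, and control positive was closer to the bezafibrate libraries than control negative was. Mrpl49 had 6.57, 5.6, 13.5, 12.8 and 14 and ratios of 2.05 and 2.28, with both intervals above 1.

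The stalk proteins recruit translation factors to the ribosome. Mrpl10 had normalised read counts of 16.2, 19.4, 30.5, 24.9 and 31, with ratios of 1.88 (1.45 to 2.46) and 1.28 (0.985 to 1.68). Mrpl11 had 6.36, 6.04, 7.86, 9.14 and 9.86, and Mrpl12, which also binds the mitochondrial RNA polymerase, had 35.3, 38.4, 41.1, 47 and 38.6. The ratio of Mrpl12 was 1.16 (0.962 to 1.41) in the negative gates, below that of Mrpl10. In the positive gates it was 1.22 (1.01 to 1.48), and the intervals of both genes overlapped widely. Mrpl38, the member with the most reads, had 50.1, 49.8, 73.2, 84.6 and 73.7 and ratios of 1.46 (1.25 to 1.71) and 1.7 (1.45 to 1.99). It was highest in bezafibrate positive, and both intervals lay above 1.

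Other large subunit proteins of known place were spread over this range. Mrpl3, near the centre where peptide bonds form, had normalised read counts of 8.01, 4.74, 8.8, 8.04 and 7.19, and its lowest library was control positive. Mrpl45, which anchors the exit site to the inner membrane, had 7.19, 7.55, 10.7, 11 and 9.73, with ratios of 1.48 and 1.46, and was the analysed member closest to the median profile. Mrpl44, a subunit with a fold like ribonuclease III, had 4.72, 6.04, 12.1, 6.78 and 9.73, with ratios of 2.57 (1.61 to 4.25) and 1.12 (0.682 to 1.88). Its bezafibrate negative library was the highest, and bezafibrate positive lay near the controls.

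Among small subunit genes, Mrps35 had the largest difference in the negative gates of those that passed the level filter, and Mrps21 and Mrps10 in the positive gates. Mrps35 had normalised read counts of 2.87, 5.39, 9.06, 8.51 and 7.73, with ratios of 3.15 (1.76 to 6.07) and 1.58 (0.966 to 2.65). Mrps10 had 2.46, 2.8, 5.998, 6.93 and 8.26, with ratios of 2.43 (1.27 to 5.06) and 2.47 (1.31 to 5.01), and Mrps21 had 5.54, 3.45, 9.86, 8.83 and 8.13, with ratios of 1.78 (1.13 to 2.88) and 2.56 (1.45 to 4.78). In all 3 genes each bezafibrate library was above both control libraries.

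Mrps12, of the decoding centre, had normalised read counts of 11.5, 10.6, 16.9, 13.4 and 13.1, with ratios of 1.47 (1.07 to 2.05) and 1.27 (0.882 to 1.84). Mrps5, at the entry of the messenger RNA channel, had 15.4, 15.5, 26.3, 18.8 and 17.6, with ratios of 1.71 (1.3 to 2.26) and 1.21 (0.894 to 1.64). For both, the interval was above 1 in the negative gates and included 1 in the positive gates. Mrps2 and Mrps7, counterparts of bacterial S2 and S7, shared that shape, with 15.6, 16.8, 28.7, 22.5 and 21.3 for Mrps2 and 16, 16.8, 28.5, 21.1 and 21.9 for Mrps7, although the Mrps2 interval in the positive gates lay just above 1 (1.01 to 1.79). Mrps22 and Mrps34, mitochondria-specific subunits in which human variants impair mitochondrial translation, were next. Mrps22 had 2.67, 4.53, 7.2, 7.09 and 6.26, and Mrps34 had 9.65, 11, 17.2, 14.7 and 18.4. Both were higher in each bezafibrate library than in either control.

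Some proteins carry an Mrps name without being small subunit proteins. Mrps30 and Mrps18a sit in the large subunit. Mrps30 had normalised read counts of 13.1, 12.5, 16.1, 12.9 and 13.1 and hardly differed between treatments, with ratios of 1.23 (0.899 to 1.69) and 1.03 (0.73 to 1.47). Mrps18a had 6.78, 10.1, 17.6, 13.6 and 10.1 and a ratio of 2.6 (1.76 to 3.93) in the negative gates, above that of its relative Mrps18b at 1.21 (0.88 to 1.67). Mrps18c, at 7, 7, 32, 19 and 14 reads, had a wide interval of 1.29 to 7.97 in the negative gates. Mrps36 is a subunit of the 2-oxoglutarate dehydrogenase complex of the citric acid cycle rather than of the ribosome. It had only 8, 5, 39, 25 and 21 reads, with ratios of 3.17 (1.46 to 7.84) and 3.66 (1.37 to 12.2).

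Mrpl18 went the other way by the widest margin. The protein is the counterpart of bacterial L18, sits in the central protuberance of the large subunit, and has also been described in a shorter cytosolic form made during the heat shock response. The gene lies at chr17:12911349-12916345 (GRCm38) on the minus strand. Its normalised read counts were 37.6, 43.5, 6.4, 9.77 and 9.46, from 183, 202, 48, 62 and 71 reads. Both control libraries were several times above all 3 bezafibrate libraries. The ratio was 0.17 (0.121 to 0.235) in the negative gates and 0.224 (0.166 to 0.2996) in the positive gates. Mrpl18 made up 5.41% and 6.19% of all member reads in the control negative and positive libraries and 0.619%, 1.05% and 1.03% in the bezafibrate libraries. On centred log2 values its profile lay 1.31 (root mean square over 5 libraries) from the members' median profile, beside a median of 0.214 over the 63 members that passed the level filter.

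The gene Tcp1, which encodes a subunit of the cytosolic chaperonin, starts inside the Mrpl18 region and runs on the opposite strand. Tcp1 had normalised read counts of 27.5, 34.9, 49.7, 46.5 and 43, with ratios of 1.81 (1.48 to 2.22) and 1.33 (1.1 to 1.62), the opposite direction from Mrpl18. The genes nearest to the Mrpl18 profile, looked for after its values were seen, were Plk3, Col12a1, Col27a1, Ppan and Myc, at distances of 0.107, 0.118, 0.130, 0.158 and 0.186. Plk3, a stress-responsive kinase, had 989.6, 1011, 174, 235 and 214. Ppan, a factor of cytosolic ribosome assembly, had 41.3, 37.1, 7.6, 11.2 and 10.1, and Myc, a transcription factor that drives ribosome production, had 151, 163, 26, 31.8 and 28.2. Col12a1 had 12.1, 12.9, 1.87, 2.52 and 2.93, and Col27a1 had 326, 305, 51.2, 75.3 and 66.8. Mapk15, Snhg17 and Gm38431 came after Myc. Hmox1, the inducible haem oxygenase, followed as ninth and was picked with its values in view, with 175, 203, 33.1, 34.2 and 39.6. That both control libraries were above all bezafibrate libraries in these genes follows from choosing them by likeness to Mrpl18.

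**Figure D3:**
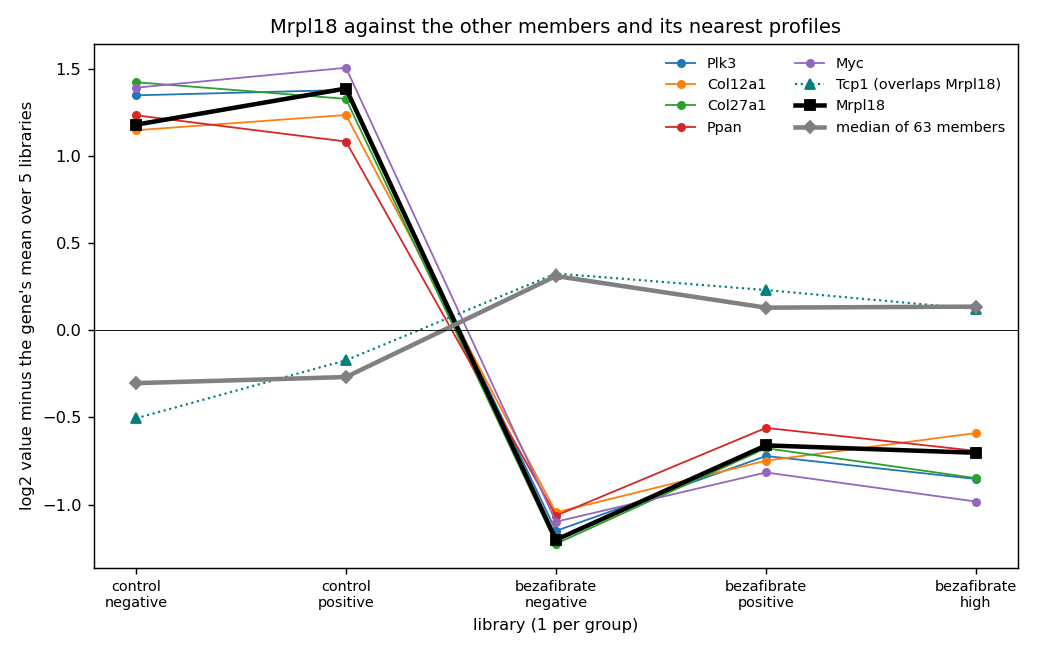
Log2 value of each gene minus its mean over the 5 libraries (vertical axis) for Mrpl18 (black), its 5 nearest profiles, the overlapping gene Tcp1 (dotted) and the median of the 63 members that passed the level filter (grey), 1 library per group. Mrpl18 and its neighbours are high in both control libraries and low in the 3 bezafibrate libraries, the reverse of Tcp1 and of the median.

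Few other members lacked the higher level under bezafibrate. Mrpl35, the counterpart of bacterial L35, had normalised read counts of 18.9, 11.2, 10.9, 11 and 13.1. The control negative library alone was high, so that the ratio was 0.579 (0.424 to 0.788) in the negative gates and 0.984 (0.678 to 1.44) in the positive gates. Mrps26, a mitochondria-specific small subunit protein, had 13.8, 13.6, 9.33, 12.9 and 10.3, with ratios of 0.678 (0.478 to 0.963) and 0.952 (0.677 to 1.34). Mrpl4 and Mrpl9 were near 1 in the negative gates, where Mrpl4 had 19.3, 20.3, 17.7, 21.4 and 16.9 over the 5 libraries and Mrpl9 had 14, 12.3, 13.1, 16.9 and 18.9. Of the members that passed the level filter, the lowest in the positive gates after Mrpl18 were Mrpl57, Mrps18b, Mrps26 and Mrpl20. Their intervals included 1. Mrpl57 had 7.8, 7.55, 8.13, 6.3 and 6.4, Mrps18b had 12.9, 12.1, 15.6, 11.3 and 10.9 and Mrpl20 had 4.11, 5.17, 8.26, 5.04 and 5.86.

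Head-to-head neighbours of the members had lower ratios than the members. The start of another gene lay within 1000 bases of the start of 26 members, on the opposite strand and pointing away, and all 26 partners were in the table, with Mrpl46 and Mrps11 as partners of each other. The median ratio of bezafibrate to control was 1.77 for these members and 0.819 for their partners in the negative gates, and 1.29 and 0.939 in the positive gates. Counting intervals of the partners were above 1 in 4 and below 1 in 8 of the negative gate ratios, and in 3 and 7 of the positive gate ratios. Over all genes 23.5% were above and 21.6% below in the negative gates, and 18.7% and 17.4% in the positive gates. The ratio itself was above 1 for 12 of the 26 partners in the negative gates and 11 in the positive gates. These shares are near the 47.0% and 47.2% of all genes.

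Particular pairs were chosen after their values were seen. Mrps34 and Eme2, a DNA repair nuclease subunit, start 29 bases apart. Eme2 had normalised read counts of 12.3, 12.5, 6.13, 5.67 and 9.33 and a ratio of 0.498 (0.331 to 0.743) in the negative gates, where Mrps34 had 1.78 (1.27 to 2.54). Mrps5 and Zfp661 start 128 bases apart, and Zfp661 had a ratio of 0.451 (0.295 to 0.684) beside 1.71 (1.3 to 2.26) for Mrps5. Mrpl40 and the histone chaperone gene Hira start 175 bases apart, with ratios of 2.6 (1.48 to 4.81) and 0.532 (0.412 to 0.687). In these pairs the interval of the member was above 1 and that of its partner below 1. The pair of Mrpl36 and Ndufs6, a complex I subunit whose start is 29 bases away, were both higher, with 2.13 (1.24 to 3.83) and 1.99 (1.42 to 2.83). So were Mrpl32 and the proteasome gene Psma2, 75 bases apart, with 1.73 (0.868 to 3.69) and 5.84 (3.36 to 11), although the first interval includes 1. Mrps12 shares its start region with Sars2, the mitochondrial seryl-tRNA synthetase, at 172 bases, and Sars2 had a ratio of 0.76 (0.518 to 1.12).

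The control gates hardly differed in these genes. Control positive against control negative had a median log2 difference of -0.01 over the 77, beside 0.01 for all genes in the table, and the ratio exceeded 1 in 38 members (49.4%), against 48.6%. At least 1.5-fold higher were 2 members, Mrps35 and Mrps22, against 4.30% of genes, and at least 1.5-fold lower were Mrpl3, Mrpl32, Mrpl34, Mrpl35 and Mrps6, against 4.84%. The interval excluded 1 for Mrpl35 (0.593, 0.414 to 0.843) and Mrps6, both lower, against 3.67% of genes below 1 and 3.68% above. Mrps6 had only 20, 8, 30, 15 and 17 reads.

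Under bezafibrate the negative gate was the highest. Bezafibrate positive against bezafibrate negative had a median log2 difference of -0.23 over the 77, beside 0.00 for all genes and -0.02 for genes of like level and length, and the ratio exceeded 1 in 20 members (26.0%), against 47.5%. By subunit the median was -0.16 for large and -0.30 for small subunit genes. At least 1.5-fold lower were 5 members, all of the large subunit (Mrpl20, Mrpl36, Mrpl39, Mrpl42 and Mrpl44), against 4.05% of genes, and 0 were at least 1.5-fold higher, against 3.81%. The interval was below 1 for 12 members and above 1 for Mrpl18, Mrpl24 and Mrpl38, against 12.8% and 9.80% of genes. With columns scaled to totals without Rn45s, the median of the members that passed the level filter was -0.08 in place of -0.22, while that of all such genes was 0.13 in place of -0.01. This comparison shares the bezafibrate negative library with the treatment comparison in the negative gates.

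Mrpl42, a mitochondria-specific large subunit protein, had the steepest step. Its normalised read counts were 4.93, 3.88, 13.3, 5.36 and 6.8, with bezafibrate negative far above the other libraries and a ratio of 0.402 (0.264 to 0.599). Mrpl39, related to threonyl-tRNA synthetases, had 8.83, 6.9, 16.4, 9.3 and 12 and a ratio of 0.567 (0.409 to 0.78), and Mrpl44 had 0.559 (0.379 to 0.811). Mrpl36, the counterpart of bacterial L36, had 3.7, 3.02, 7.86, 4.26 and 7.99, with a ratio of 0.541 (0.33 to 0.867) and a level in the uppermost gate as high as in the negative gate. Mrpl24 had 13.3, 15.5, 14.1, 19.7 and 16.4 and, at 1.39 (1.07 to 1.82), was higher in the positive gate, as was Mrpl18 at 1.53 (1.03 to 2.27).

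The uppermost gate added little. Bezafibrate high against bezafibrate positive had a median log2 difference of -0.03, beside 0.00 for all genes, and the ratio exceeded 1 in 35 members (45.5%), against 48.1%. At least 1.5-fold higher were Mrpl36 (1.88, 1.17 to 3.08) and Mrpl46 (1.72, 1.1 to 2.73), against 3.92% of genes, and Mrpl21 was lower by that much, against 2.96%. Intervals were above 1 for these 2 and Mrpl10 and below 1 for Mrpl12 and Mrpl38, against 6.57% and 6.04% of genes. Mrpl44, Mrps9 and Mrps27 followed among the highest, and Mrpl53, Mrps18a, Mrpl30, Mrpl4 and Mrps26 were the lowest of the members that passed the level filter, with intervals that include 1.

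Bezafibrate high against bezafibrate negative had a median log2 difference of -0.18, beside 0.00 for all genes, and the ratio exceeded 1 in 25 members, against 45.8%. At least 1.5-fold lower were 10 members, against 3.82%, and 0 were higher by that much, against 4.34%. Of the 10, only Mrpl30, Mrpl41, Mrpl42 and Mrps18a passed the level filter, and 2.28% of the genes that passed it were lower by that much. The others, Mrpl21, Mrpl23, Mrpl55, Mrps18c, Mrps36 and Mrps6, had only 14 to 24 reads each in bezafibrate high. Intervals were below 1 for 18 members, against 12% of genes, and above 1 for Mrpl18 and Mrpl9, against 9.44%. Mrpl9 had a ratio of 1.45 (1.11 to 1.89). The lowest of those that passed the level filter were Mrpl42 at 0.51 (0.356 to 0.721), Mrpl41, Mrps18a, Mrpl30 and Mrps5. Mrps18a was lower gate by gate, with 0.575 (0.428 to 0.769) at the end.

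The negative gate was the highest of the 3 bezafibrate gates in 47 of 77 members (61.0%), against 37.6% of all genes and 39.4% of genes of like level and length. By subunit this held for 23 of 29 small and 24 of 48 large subunit genes. Lower values at each step from negative to positive to high were seen in 29 members (37.7%), against 16.3% of all genes, among them the large subunit genes Mrpl3 and Mrpl16 and the small subunit genes Mrps12, Mrps2, Mrps5 and Mrps22. Higher values at each of these steps were seen in 7 members (9.09%), against 16.5%, and these were Mrpl11, Mrpl19, Mrpl27, Mrpl35, Mrpl9, Mrps10 and Mrps25. Mrpl27 had normalised read counts of 8.21, 7.33, 14.4, 16.2 and 17.1, and Mrps25 had 9.65, 7.11, 10.8, 11.5 and 14.4. In neither does any single step have an interval apart from 1.

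**Figure D4:**
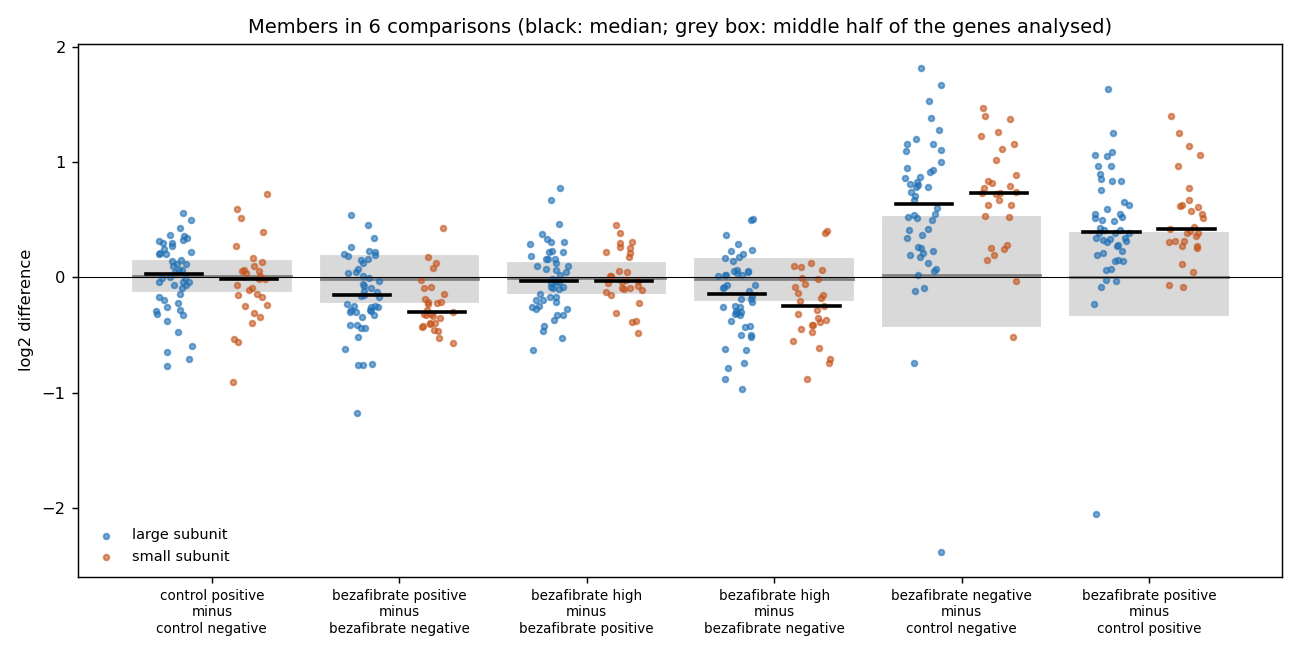
Log2 difference of each member in the 6 comparisons (large subunit blue, small subunit orange), with the median of each subunit as a black bar and the middle of the distribution of the 8973 genes that passed the level filter (quartiles) as a grey box. Members spread around 0 between the control gates and between the upper bezafibrate gates, lie mostly below 0 in the other gate comparisons, with medians of -0.23 and -0.18, and mostly above 0 in the treatment comparisons.

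The share of member reads that fell to large subunit genes was 68.6% (Clopper-Pearson 95% interval 67.0 to 70.2) in control negative, 69.7% (68.0 to 71.2) in control positive, 65.5% (64.4 to 66.6) in bezafibrate negative, 68.5% (67.3 to 69.7) in bezafibrate positive and 67.9% (66.8 to 69.0) in bezafibrate high. Without Mrpl18 these shares were 66.8% (65.2 to 68.5), 67.6% (66.0 to 69.3), 65.3% (64.2 to 66.4), 68.2% (67.0 to 69.4) and 67.5% (66.4 to 68.7). Bezafibrate negative had the lowest share both times. Without Mrpl18 its interval lay below those of the other bezafibrate gates but overlapped those of both controls.

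Both differences between gates were set against each other. The bezafibrate gate difference minus the control gate difference was below 0 in 49 of 77 members, against 50.9% of all genes, with a median of -0.16 (large -0.12, small -0.23), beside -0.01 for all genes. The ratio of positive to negative gate was on opposite sides of 1 in the 2 treatments for 38 members, against 49.2% of all genes, but for 0 of them were both intervals apart from 1, against 1.79%, and no single member showed opposite gate differences beyond counting error.

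Gate and treatment were also fitted as additive terms for the 4 negative and positive libraries. The fit leaves 1 residual degree of freedom, which holds the interaction of the terms, so its calls say nothing of replicates. With limma on the 8973 genes that passed the level filter, 31 of the 63 members there were called higher under bezafibrate and 1, Mrpl18, lower, at a Benjamini-Hochberg adjusted 0.05, beside 24.5% and 20.8% of genes. On recovered reads, edgeR called 33 higher and 1 lower, beside 24.1% and 21.7% of genes. When columns were scaled to equal totals instead, limma called 49 higher and 1 lower, beside 35.8% and 11.6% of genes.

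Other genes of mitochondrial translation were read from lists of the pathway, and part of those named were picked with their values in view. Of 12 translation factors, 11 had a ratio above 1 in the negative gates and 10 in the positive gates, with median log2 differences of 0.49 and 0.27, and the interval was above 1 for 6 and 4 and below 1 for 0. Over all genes the ratio was above 1 in 47.0% and 47.2%, and the interval above 1 in 23.5% and 18.7%. Tufm, the elongation factor that brings aminoacyl-tRNA to the ribosome, had normalised read counts of 28.7, 25.4, 73.3, 54.7 and 64.4, with ratios of 2.55 (2.12 to 3.09) and 2.15 (1.74 to 2.67). Gfm1, which moves the ribosome along, had 22, 20.05, 44.8, 35.3 and 35.7, with ratios of 2.04 (1.64 to 2.56) and 1.76 (1.38 to 2.27). Both were above the controls in each bezafibrate library, and both were highest in bezafibrate negative. Mtif2, the initiation factor, had 24.4, 21.3, 26.5, 23.3 and 24.6, with ratios of 1.09 (0.861 to 1.37) and 1.09 (0.842 to 1.42). Oxa1l, which inserts new chains into the membrane, had a ratio of 2.34 (1.82 to 3.02) in the negative gates and of 1.19 (0.916 to 1.54) in the positive gates.

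Ribosome subunits with other symbols (6 genes) had medians of 0.41 and 0.33. Ict1, a release factor built into the large subunit, had 3.7, 4.31, 9.6, 10.4 and 8.39, with ratios of 2.6 (1.53 to 4.63) and 2.41 (1.44 to 4.2). Dap3, a GTP-binding small subunit protein, was lower, with 32.6, 34.5, 21.9, 27.7 and 22.8 and ratios of 0.67 (0.535 to 0.838) and 0.804 (0.646 to 1.003).

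Genes that charge tRNAs or build the ribosome had medians near or below 0. The mitochondrial aminoacyl-tRNA synthetases and amidotransferase (21 genes) had medians of -0.22 and -0.18, with intervals above 1 for 3 and 2 and below 1 for 5 and 4. Over all genes 23.5% and 18.7% were above and 21.6% and 17.4% below, so the share below was near the background. Lars2, the leucyl-tRNA synthetase, had normalised read counts of 38.2, 28.7, 131, 25.2 and 42.6, with bezafibrate negative alone high. Vars2, the valyl-tRNA synthetase, had 35.9, 41, 23.6, 25.2 and 27.8, with ratios of 0.657 (0.53 to 0.814) and 0.616 (0.496 to 0.764), and Cars2, the cysteinyl-tRNA synthetase, had a ratio of 0.407 (0.282 to 0.582). Ribosome assembly factors (25 genes) had medians of 0.10 and -0.10, with intervals above 1 for 1 and 1 and below 1 for 3 and 3, shares under those of all genes in both directions. Dhx30, an RNA helicase of assembly, had 38.2, 34.7, 21.9, 23.2 and 25.6, and Nsun4, an RNA methyltransferase of assembly, had 8.42, 9.49, 12.4, 16.2 and 12.1, in opposite directions.

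Genes of mitochondrial DNA transcription and RNA handling (24 genes) had medians of 0.15 and 0.11. Polrmt, the mitochondrial RNA polymerase, had 43.7, 42, 28.9, 27.6 and 32.5, with ratios of 0.661 (0.545 to 0.803) and 0.656 (0.532 to 0.809). Tfam, which packages mitochondrial DNA and starts its transcription, had 12.1, 12.7, 16.7, 14.5 and 16.7, with ratios of 1.38 (1.002 to 1.91) and 1.14 (0.813 to 1.61). Hsd17b10, part of the mitochondrial RNase P, had 7.8, 11.9, 35.6, 22.5 and 26.4. Of 10 nuclear regulators, those with intervals below 1 in the negative gates included Myc, Esrra, Nrf1, Ppargc1a and Pprc1, a relative of the coactivator PGC-1. Pprc1 had ratios of 0.342 (0.286 to 0.407) and 0.3604 (0.299 to 0.433), and Esrra of 0.507 (0.39 to 0.658) and 0.805 (0.608 to 1.07). Nrf1 had 17.5, 15.1, 9.86, 9.61 and 13.7, with ratios of 0.565 (0.408 to 0.781) and 0.637 (0.444 to 0.911), and Gabpa, the DNA-binding part of GABP, had 24.8, 23.5, 37.9, 29.6 and 30.9, with 1.52 (1.23 to 1.9) and 1.26 (0.991 to 1.61). Ppargc1b, the coactivator PGC-1 beta, had 29.4, 20.3, 46.7, 54.4 and 56 and Ppargc1a, PGC-1 alpha, had 58.5, 57.6, 32.9, 33.6 and 27.7. These RNA levels differed in both directions, and the part of the factors in the members' levels was not tested.

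**Figure D5:**
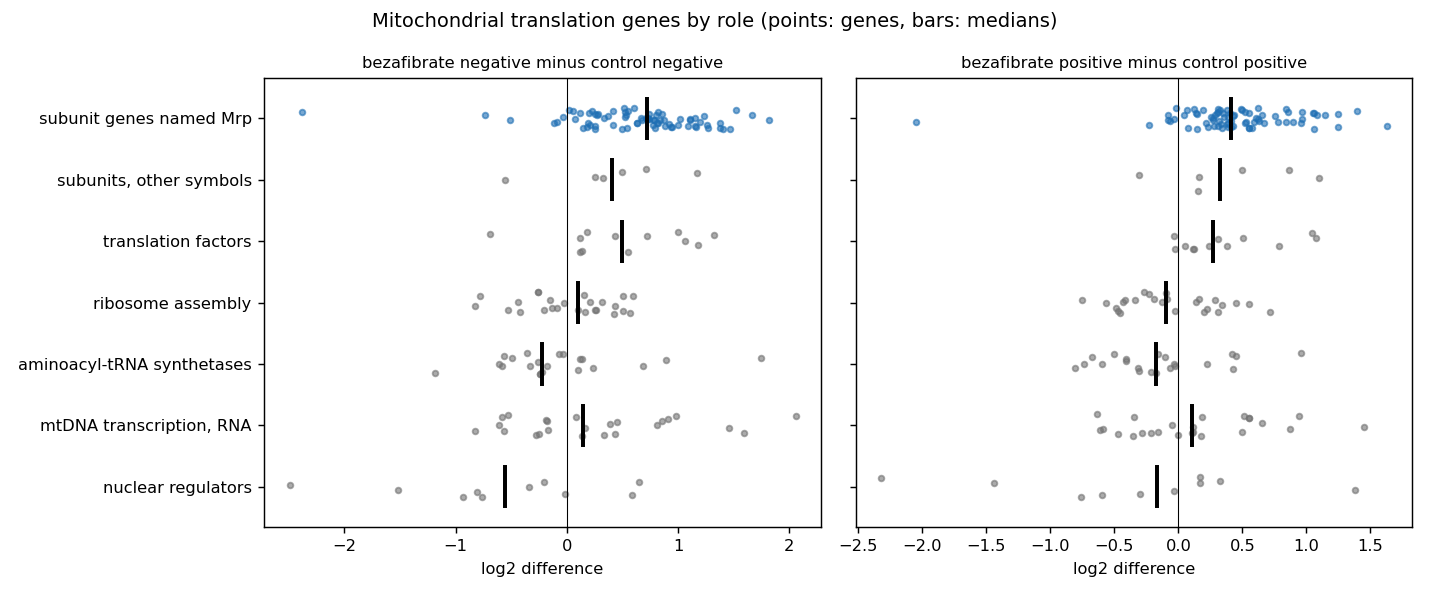
Log2 difference between the bezafibrate and control libraries of each gene (points) by role in mitochondrial translation, in the negative gates (left) and positive gates (right), with medians as black bars. The subunit genes (77) and the translation factors (12) lie mostly above 0, with medians of 0.72 and 0.49 in the negative gates, while the synthetases (21) have a median of -0.22.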

How the data were processed

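RNA of sorted mouse hepatocytes was sequenced in 5 libraries after ribosomal RNA depletion, from RNA isolated with a kit made for fixed, embedded tissue, per the labels' protocols. Such kits are built for fragmented RNA, and RNA integrity was not tested. The authors deposited 1 table of normalised read counts (a signal never below 0). Trimmomatic 0.36, Bowtie2, RSEM and edgeR were named with the build mm10, per the submitters' processing notes, with no roles stated. From the values, each deposited signal is a whole number of reads (100% within 0.001) times a factor per library, and these factors equal edgeR's TMM factors of the recovered reads.

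Computed here were differences of log2(value + 1.004), which understate low genes, and ratios whose 95% intervals are exact (Clopper-Pearson, on recovered reads). A difference was called at 1.5-fold. Genes with a mean of at least 5.02 entered fits with limma 3.58.1 and edgeR 4.0.16 (R 4.3.3), tested on simulated data. Genes of like level and length are 2774 protein-coding genes within the members' range from the percentile 10 to 90 of mean value and transcript length. Gene positions came from GENCODE M21 and promoters from RefSeq. Named members were the 5 highest and 5 lowest per comparison and the 6 highest per kilobase in each subunit. The 3 lowest per kilobase of all members that passed the level filter were also named. So were members of set roles and members graded across bezafibrate gates. Members, lists and roles were chosen with earlier results of these data known. Alternatives were other pseudocounts, filters, scalings, subunit assignments, folds and tools. Further tools were Python 3.11.15, numpy 2.4.6, pandas 2.3.3, scipy 1.17.1 and matplotlib 3.10.9.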

Additional observations from a re-analysis of the deposited data

How the results depend on the processing

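Direction was kept under every alternative by the members' medians between treatments and between bezafibrate negative and the other bezafibrate gates. The members' medians between control gates (-0.01 to 0.11) and between bezafibrate high and positive (-0.06 to 0.04) lay on both sides of 0. Between bezafibrate positive and negative they ran from -0.23 to -0.05 and between high and negative from -0.18 to -0.04. Totals without Rn45s gave -0.08 and -0.05 there, and the strict filter below gave -0.05 and -0.04. The large minus small subunit difference lay on both sides of 0 in the negative gates (-0.44 to 0.11), in the positive gates (-0.04 to 0.02) and between high and positive (-0.11 to 0.05), so no order of the subunits can be read from it there. Among the members' medians, the subunit differences and the members called, 123 values kept their size and 3 moved. A median or subunit difference counted as kept within the counting margin of a typical single member, and a number of members called within 1.5-fold. That margin is wide beside the medians between gates, so this tally cannot show that they held their size. TMM scaling equals the deposited scaling, so its values could not move. A filter at 20 times the pseudocount left 6 members. With it the large minus small subunit difference between bezafibrate positive and negative was 0.57, and limma called 5 members for treatment, because fewer members were tested. Scaling by column totals raised that number to 50, where 32 were called with the deposited scaling. The members' median difference ran from 0.50 to 0.93 in the negative gates and from 0.28 to 0.55 in the positive gates over all settings. Scaling by column totals moved the median of all genes by 0.22 and 0.20, and totals without Rn45s moved it by -0.24 and -0.11. Relative to all genes, the members stood 0.69 to 0.71 and 0.35 to 0.39 higher under each scaling. A scaling factor moves all genes of a library nearly alike, so this gap could hardly change and is no check of the scaling. Of 35 members that passed the level filter and were at least 1.5-fold higher in the negative gates, the number was 20 with totals without Rn45s, 3 with the strict filter and 13 at 2-fold. In the positive gates 17 became 28 with column totals, 11 with 5 times the pseudocount, 1 with the strict filter and 6 at 2-fold. Depth limited single members, with a median of 33 to 80 reads. No paired analysis was possible because each group has 1 library and the labels give no replicate numbers.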

Other observations

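Cytosolic ribosomal proteins and complex I, the respiratory chain entry point that receives subunits from the mitochondrial ribosome, showed the same direction as the mitochondrial ribosomal proteins. The 80 cytosolic ribosomal protein genes had median log2 differences of 0.75 in the negative gates and 0.49 in the positive gates, beside 0.72 and 0.41 for the 77 mitochondrial ones. The 37 complex I genes had 1.09 and 0.82. Between the bezafibrate positive and negative gates the medians were -0.22 for cytosolic ribosomal proteins, -0.29 for complex I and -0.23 for the mitochondrial ribosomal proteins. Differences between these sets were not tested, and transcript length was not allowed for. Genes up to 937 bases that passed the level filter, members left out, had treatment medians of 0.64 and 0.41. Those 454 genes may include some of these sets.

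Outside the lists, the genes whose centred log2 values over the 5 libraries lay nearest to the members' median profile were 0610011F06Rik, Rpl41, Spin1, Ddx3x and Tsn, at root mean square distances of 0.0097, 0.0174, 0.0209, 0.0237 and 0.0241. Ddx3x, an RNA helicase, had normalised read counts of 82.9, 86.9, 128, 109 and 111. Tsn, the nucleic acid binding protein translin, had 12.5, 13.4, 20.7, 17.5 and 18. Among the members the nearest was Mrpl45, at 0.0760.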
